A study of Homo sapiens with 6 samples.

Results

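The replication-dependent histone genes encode the linker histone H1 and the core histones H2A, H2B, H3 and H4 that package DNA as it is copied. They were taken as the protein-coding rows of the count table whose symbol begins with HIST1H, HIST2H, HIST3H or HIST4H. This gave 71 of the 58735 genes in the table, of which 6 encode H1, 17 H2A, 18 H2B, 15 H3 and 15 H4. By cluster, 55 members lie in HIST1 and 12 in HIST2, with 3 in HIST3 and 1 in HIST4. RNA was sequenced from MDA-MB-231, a mesenchymal triple-negative breast cancer cell line, as parent cells (3 libraries, labelled wild type) and as a derivative resistant to adriamycin (ADR, also called doxorubicin, an anthracycline that damages DNA), named ADRr (3 libraries). According to the methods, ADRr cells were selected in rising concentrations of ADR and isolated as single clones by limiting dilution, so the comparison is one of a selected, cloned line with its uncloned parent. The paper names DMEM for MDA-MB-231 cells and no separate base medium for ADRr cells. Per its methods, cells that survived selection were expanded in medium with high doses of the drug. Whether ADR was present at harvest is not given in the sources used here. The series text mentions 3 time points that no sample label names, so the 3 libraries of each line were taken as its replicates. Where they are not separate cultures, the p-values measure a spread that may be technical.

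Replication-dependent histone mRNAs differ from nearly all other mRNAs. Their genes lack introns, and the mRNA ends in a short stem-loop instead of a poly(A) tail. The stem-loop binding protein SLBP holds this structure, recruits the U7 small nuclear ribonucleoprotein that directs the cut, and accompanies the mRNA into translation. Synthesis is tied to S phase, when NPAT, a coactivator phosphorylated by cyclin E and CDK2, switches the clusters on in the histone locus body. When DNA synthesis stops, the mRNA is tailed with uridines and degraded, and the exonuclease ERI1 trims the stem-loop. Some members also make a polyadenylated form from a signal downstream of the stem-loop, mostly in cells that have left the cycle. The libraries were made from poly(A)-selected RNA, so their counts measure whatever histone RNA came through that selection, and not the whole histone mRNA pool.

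Library totals were 15983985 to 18272314 counts. A gene without a count may still have had as many as 3, or 0.164 to 0.188 CPM by counting error only, where CPM relates counts to the library total. Within a group, the chi-square of 2 libraries divided by its degrees of freedom was 2.60 to 8.51, and between groups 123 to 137. Every library carried the markers of the line, with VIM, CD44, AXL, CAV1 and EGFR together at 4407 to 4561 CPM in parent and 4643 to 4698 CPM in ADRr libraries. Of the 5 genes listed as low in the line, PGR was at 0 and ESR1 had at most 1 count in a library. The other members of that list were not absent: ERBB2 had 1785 to 2303 counts in parent and 882 to 905 in ADRr libraries, EPCAM 152 to 266 and 439 to 492, and CDH1 233 to 259 and 108 to 133. Leukocyte markers (PTPRC, TYROBP, CD53, LYZ) summed to at most 0.274 CPM, and endothelial ones (PECAM1, VWF, CDH5) to at most 1.05 CPM. Among the luminal genes, FOXA1 had at most 2 counts in a library, and the sum with KRT8 and GATA3 was 604 to 683 CPM in parent and 173 to 189 CPM in ADRr libraries. The part of these marker differences in the histone results was not tested.

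More RNA of this family was counted in ADRr cells. All 71 members together took 63.8, 62.2 and 68.4 CPM in parent replicates 1 to 3, and 176, 181 and 171 CPM in ADRr replicates 1 to 3. The groups did not overlap, and the means of 64.8 ± 3.18 and 176 ± 4.88 CPM (SD, n = 3 each) stood in a ratio of 2.72. In RNA from a whole culture, a change in the number of cells that make a transcript and a change in the RNA per cell cannot be told apart. The sum was also a very small part of each library, at most 0.0181% of its counts. Because the sum runs over members chosen with earlier results known, no p-value is given for it.

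The histone types did not share this ratio. H1 took 9.42 ± 1.17 CPM in parent and 42.2 ± 2.18 CPM in ADRr libraries, a ratio of 4.47. H2A went from 9.54 ± 0.675 to 30.8 ± 1.75 CPM, a ratio of 3.22. H2B, the type with the most counts (46.8% of all histone counts), went from 34.1 ± 3.15 to 78.7 ± 3.73 CPM, a ratio of 2.31. The ratio of H4 was 2.28, with 10.2 ± 0.796 CPM in parent and 23.2 ± 2.78 CPM in ADRr libraries. In each of these types every ADRr library lay above every parent library. H3 was the exception: it took 1.15% of the histone counts, its libraries ranged from 1.44 to 1.85 CPM in parent and from 0.547 to 1.73 CPM in ADRr cells, and these ranges overlapped. The sums of H1, H2A, H2B and H4 rested largely on a single gene each. In percent of all histone counts, H1 held 21.5 and HIST1H1C 21.1, and H2A held 16.7 and HIST1H2AC 12.6. H2B held 46.8 and HIST1H2BK 31.8, and H4 held 13.9 and HIST1H4I 10.9. The ratios are thus not those of all genes of a type.

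**Figure D1:**
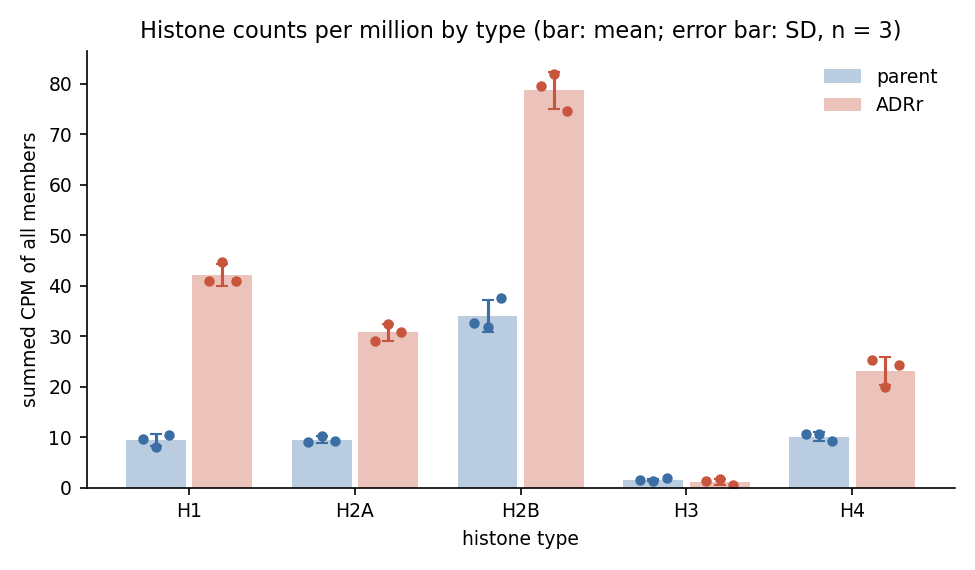
Summed CPM of the members of each histone type (y axis) in parent (blue) and ADRr (red) cells, with bars at the mean, error bars of 1 SD (n = 3) and a point for each library. The ADRr points lie above all parent points for H1, H2A, H2B and H4, while the H3 sums are near 1 CPM and overlap.

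The counts were concentrated in few genes. HIST1H2BK alone held 31.8% of the 12482 histone counts of the 6 libraries, HIST1H1C 21.1%, HIST1H2AC 12.6%, HIST1H4I 10.9% and HIST1H2BD 8.77%, so that these 5 genes, all in HIST1, held 85.2%. Of the 71 members, 30 had no count in any library. Another 27 were counted but lay under the filter on low counts, and 14 were tested (1 H1, 3 H2A, 7 H2B, 1 H3 and 2 H4). The 57 members that were not tested summed to 3.22 ± 0.447 CPM in parent and 3.78 ± 0.402 CPM in ADRr libraries, and those ranges overlapped.

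Of the 14 tested members, 10 were called higher in ADRr cells by edgeR's quasi-likelihood test (Benjamini-Hochberg adjusted p of at most 0.05 over all 15242 tested genes and a fold change of at least 1.2), beside 29.2% of all tested genes. None was called lower, beside 29.6% of all tested genes. At an unadjusted p under 0.05, edgeR gave 1 lower member and DESeq2 gave 0. In 10 members every ADRr library lay above every parent library (34.5% of all tested genes), and in 1 member every ADRr library lay below (34.7%). The median log2 fold change of the 14 tested members was 1.61, where the median of all tested genes was -0.01. HIST1H2BC and HIST2H2BF reached the filter in no parent library, and HIST1H3H reached it in no ADRr library, so these counts and the median describe the members that could be tested and nothing more. The called members covered H1 (1 of 1 tested), H2A (1 of 3), H2B (6 of 7) and H4 (2 of 2), while the only tested H3 gene was not called.

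**Figure D2:**
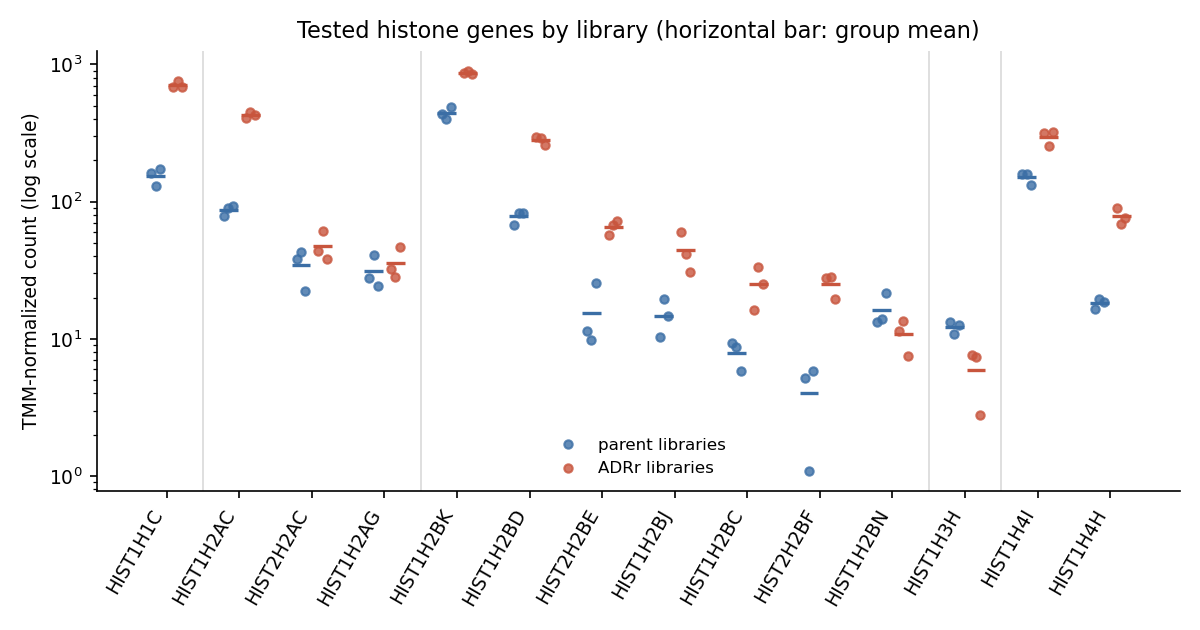
TMM-normalized counts (y axis, log scale) of the 14 tested histone genes in each parent (blue) and ADRr (red) library, grouped by histone type from H1 on the left to H4 on the right, with the group mean as a short bar. In 10 genes all red points lie above all blue points, HIST2H2AC, HIST1H2AG and HIST1H2BN overlap, and HIST1H3H has its red points below the blue ones.

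The linker histone H1 binds DNA where it enters and leaves the nucleosome and helps to compact chromatin. Its only tested replication-dependent gene was HIST1H1C (ENSG00000187837, encoding H1.2), a single-exon gene at chr6:26055787-26056428 (GRCh38). Its normalized counts were 161, 130 and 174 in parent replicates 1 to 3 and 689, 754 and 687 in ADRr replicates 1 to 3. The lowest ADRr library was thus far above the highest parent library, and the log2 fold change was 2.19 ± 0.10 (SE; adjusted p = 2.06e-14, edgeR). The other H1 members stayed near 0. HIST1H1E had raw counts of 7, 10 and 7 in parent and 5, 4 and 10 in ADRr libraries, and HIST1H1A had 1 count in 1 library.

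H2A and H2B form the dimers that flank the central tetramer of the nucleosome, and most of their genes stand head to head in pairs. HIST1H2AC (ENSG00000180573, chr6:26124145-26139116) was the H2A gene with the most counts. It had 78.2, 89.8 and 93.5 normalized counts in parent and 409, 448 and 429 in ADRr libraries. Every ADRr value exceeded every parent value, with a log2 fold change of 2.29 ± 0.12 (adjusted p = 6.36e-14, edgeR). HIST2H2AC (ENSG00000184260, chr1:149886975-149887364) had 38.1, 43.3 and 22.4 normalized counts in parent and 43.8, 60.7 and 38.3 in ADRr libraries. These values overlapped, and its log2 fold change of 0.46 ± 0.28 was not called (adjusted p = 0.159, edgeR). HIST1H2AG (ENSG00000196787, chr6:27133042-27135291) had 27.8, 41.1 and 24.3 in parent and 32.4, 28.3 and 46.7 in ADRr libraries. Its groups overlapped too, with a log2 fold change of 0.21 ± 0.30 (adjusted p = 0.547, edgeR). At counts this low, a miss of the threshold does not show that either gene was equal in the groups.

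H2B gave 7 of the 14 tested members, and 6 of these 7 were called higher. HIST1H2BK (ENSG00000197903, chr6:27146418-27146798) had the most counts of the family in both groups. Its normalized counts were 433, 398 and 491 in parent and 867, 899 and 845 in ADRr libraries, a log2 fold change of 0.98 ± 0.08 (adjusted p = 5.36e-10, edgeR). Although it did not overlap between groups, this was the smallest change among the 6 called H2B genes. HIST1H2BD (ENSG00000158373, chr6:26158146-26171349) had 67.9, 83.3 and 82.8 normalized counts in parent and 297, 292 and 258 in ADRr libraries, with a log2 fold change of 1.85 ± 0.13 (adjusted p = 3.59e-11, edgeR). HIST2H2BE (ENSG00000184678, chr1:149884459-149886652) had 11.3, 9.74 and 25.3 in parent and 57.1, 68.0 and 71.9 in ADRr libraries. Parent replicate 3 lay well above the other parent values of HIST2H2BE but under all ADRr values, and the log2 fold change was 2.06 ± 0.31 (adjusted p = 4.44e-06, edgeR).

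The largest increase among the 14 tested members belonged to HIST2H2BF (ENSG00000203814, chr1:149782689-149812373), with raw counts of 5, 1 and 6 in parent and 29, 27 and 21 in ADRr libraries. Its log2 fold change of 2.58 ± 0.48 (adjusted p = 6.63e-05, edgeR) rests on few parent counts, and 5.58% of the 150-base windows of its exons also occur in HIST2H2BA or HIST2H2BB, 2 pseudogenes, so some of its reads could be shared. HIST1H2BC went from a mean of 7.92 ± 1.82 to 25.0 ± 8.66 normalized counts (log2 fold change 1.64 ± 0.42, adjusted p = 0.0016, edgeR) and HIST1H2BJ from 14.8 ± 4.59 to 44.2 ± 14.7 (1.58 ± 0.35, adjusted p = 0.000369, edgeR). HIST2H2BF and HIST1H2BC reached the filter in no parent library, so they were tested only through the group where they were high. Their p-values and the rank of HIST2H2BF carry that selection. HIST1H2BN was the H2B gene that was not called. Its normalized counts of 13.4, 14.1 and 21.4 in parent and 11.4, 13.6 and 7.47 in ADRr libraries overlapped (log2 fold change -0.60 ± 0.42, adjusted p = 0.213, edgeR).

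H3 and H4 form the tetramer at the centre of the nucleosome and carry the most studied histone marks. The only tested H3 gene, HIST1H3H (ENSG00000278828, chr6:27810064-27811300), was at the edge of detection with 13, 10 and 13 raw counts in parent and 8, 7 and 3 in ADRr libraries. All ADRr libraries lay below all parent libraries, but the log2 fold change of -1.05 ± 0.50 was not called (adjusted p = 0.0669, edgeR). A further H3 gene, HIST1H3C, had raw counts of 9, 6 and 15 in parent and 4, 4 and 3 in ADRr libraries and was not tested. HIST1H3B, also not tested, had 3, 7 and 2 in parent and 8, 5 and 1 in ADRr libraries. Both tested H4 genes were called higher. HIST1H4I (ENSG00000276180, chr6:27138588-27139881) had 160, 160 and 132 normalized counts in parent and 316, 253 and 323 in ADRr libraries, a log2 fold change of 0.99 ± 0.12 (adjusted p = 3.46e-07, edgeR). HIST1H4H (ENSG00000158406, chr6:26277609-26285638) had 16.5, 19.5 and 18.5 in parent and 90.4, 69.1 and 76.6 in ADRr libraries, a log2 fold change of 2.11 ± 0.26 (adjusted p = 1.70e-07, edgeR). Neither of these genes overlapped between the groups. Of the other 13 H4 members, 7 had no count in any library and 6 were under the filter. HIST4H4, the single HIST4 member, was not tested, with raw counts of 4, 0 and 3 in parent and 15, 14 and 8 in ADRr libraries.

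**Figure D3:**
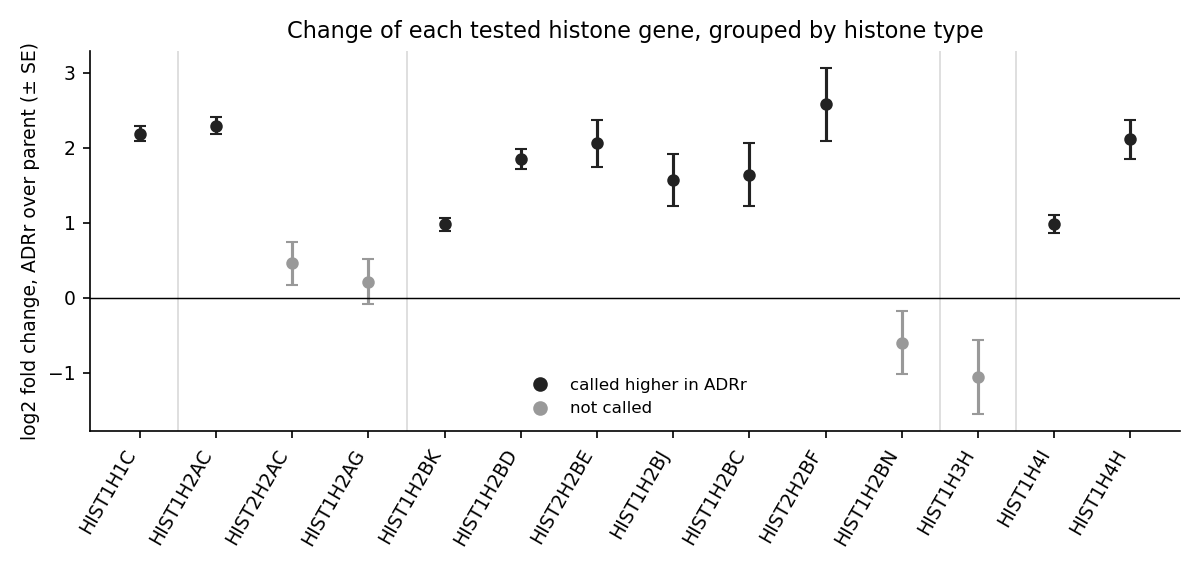
Log2 fold change of ADRr over parent (y axis) with its standard error for the 14 tested histone genes, ordered by histone type, with genes called higher in black and the others in grey. The 10 black points lie between 0.98 and 2.58, and 2 grey points, HIST1H2BN and HIST1H3H, lie below 0.

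Per unit of gene length, the order of the levels was led by the same pair of genes in both groups. On the FPKM scale, HIST1H2BK stood at 66.1 in parent and 131 in ADRr cells, and HIST1H1C followed with 13.8 and 63.4. HIST1H4I was at 6.66 and 13.2 FPKM, HIST1H2BD at 5.12 and 18.6, HIST2H2AC at 5.07 and 6.99, and HIST1H2AC at 2.99 and 14.7. In parent cells HIST1H2AC was the lowest of these 6 in the mean, at 2.69 to 3.20 FPKM, and HIST1H2BD and HIST2H2AC overlapped. In ADRr cells HIST1H2AC, at 14.1 to 15.4 FPKM, lay above HIST2H2AC in every library and overlapped HIST1H4I. Every other tested member had a mean below 1 FPKM in parent cells. These levels rest on gene models of very unequal kind: HIST1H2BK, HIST1H1C and HIST2H2AC are annotated over 381, 642 and 390 bases without a stem-loop or a poly(A) signal, while the model of HIST1H2AC has 1668 exonic bases. In the GENCODE 29 annotation used for the counts, 29 of the 71 members have a longer transcript that runs at least 100 bases past the stem-loop, is spliced, or has a poly(A) signal within 50 bases of its end. Those 29 members, 11 of them tested, went from 25.5 ± 0.982 to 77.9 ± 1.66 CPM in sum, a ratio of 3.05. The 42 members with a short model went from 39.3 ± 3.55 to 98.1 ± 4.83 CPM, a ratio of 2.50. This split follows the annotation: HIST1H2BK, short here, spans 8566 bases in RefSeq. With HIST1H2BK and HIST1H1C left out, a choice made after their values were seen, the other 40 short models summed to 4.85 ± 0.327 CPM in parent and 5.14 ± 0.891 CPM in ADRr libraries.

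The stem-loop itself could be read in the transcripts of 32 members, 10 of them tested. It is printed here for tested members of H2A, H2B, H3 and H4, since it is the sequence that tells these mRNAs from other mRNAs, with the 16 bases of the stem-loop in capitals and 6 bases on either side, from GENCODE 29 transcripts on GRCh38, with the DNA letters of the transcript strand.
HIST1H2AC, chr6:26124663-26124690, plus strand: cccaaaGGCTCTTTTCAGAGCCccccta
HIST1H2AG, chr6:27133509-27133536, plus strand: accaacGGCTCTTTTCAGGGCCacccac
HIST1H2BD, chr6:26158581-26158608, plus strand: cccaaaGGCTCTTTTAAGAGCCacgcat
HIST2H2BE, chr1:149886182-149886209, minus strand: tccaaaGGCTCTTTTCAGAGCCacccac
HIST1H3H, chr6:27810510-27810537, plus strand: cccaaaGGCTCTTTTCAGAGCCacccac
HIST1H4I, chr6:27139648-27139675, plus strand: taaaaaGGCCCTTTTTAGGGCCcctaag
HIST1H4H, chr6:26285125-26285152, minus strand: accaaaGGCCCTTTTCAGGGCCgcccac

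The sequence shown for HIST1H2AC, HIST2H2BE and HIST1H3H was the most frequent one, with 17 of the 32 members, 5 of them tested. HIST1H2BD shared its stem-loop with 5 members in all, HIST1H4H with 5 and HIST1H4I with 3, while that of HIST1H2AG occurred in no other member read. The same stem-loop was thus found in genes that were called higher (HIST1H2AC, HIST2H2BE) and in genes that were not (HIST1H3H, HIST1H2BN).

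Upstream of the start, histone genes carry short elements that recur within a type. RefSeq (GRCh38.p14) promoters of 250 bases before to 50 bases after the start were matched to 61 of the 71 members and searched on both strands for the octamer ATTTGCAT, the CCAAT box (CCAAT) and the TATA box (TATAAA). The octamer, which POU2F1 binds, was present in 42.6% of the 61 members and in 1.80% of all 27305 promoters in the table. It was found mostly in H2B (14 of 18 promoters) and H2A (11 of 14), with 1 of 10 in H3 and none in H1 (6) or H4 (13). As both strands were searched and promoters of head-to-head genes overlap, a single octamer could count for both genes of a pair. The same site was counted for HIST2H2BE (46 bases before its start) and HIST2H2AC (197 bases). The shares are thus of promoters, not of separate sites, and the octamers in H2A and H2B are not independent. CCAAT was found in 83.6% of the members and 35.7% of all promoters, and TATAAA in 65.6% and 12.0%. The octamer was present in 8 of the 14 tested members (57.1%) and in 6 of the 10 called higher (60%). The 10 are part of the 14, so these shares could hardly differ, and nothing is read from their closeness. The 250 bases before the start are printed for the 2 genes with the most counts and for a HIST1 and a HIST2 gene of divergent pairs, with matches on either strand in capitals, where overlapping or adjoining matches run together.
HIST1H2BK, chr6:27146859-27147108, minus strand: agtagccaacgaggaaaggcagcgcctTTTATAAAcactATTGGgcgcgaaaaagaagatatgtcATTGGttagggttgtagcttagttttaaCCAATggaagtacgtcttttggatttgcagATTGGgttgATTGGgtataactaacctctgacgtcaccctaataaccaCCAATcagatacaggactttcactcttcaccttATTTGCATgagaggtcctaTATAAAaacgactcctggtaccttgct
HIST1H1C, chr6:26056471-26056720, minus strand: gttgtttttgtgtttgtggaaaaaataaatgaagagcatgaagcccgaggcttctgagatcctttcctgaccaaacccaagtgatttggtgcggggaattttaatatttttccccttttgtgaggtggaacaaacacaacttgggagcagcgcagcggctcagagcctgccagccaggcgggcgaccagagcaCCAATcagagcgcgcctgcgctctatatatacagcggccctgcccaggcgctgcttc
HIST1H2AC, chr6:26123922-26124171, plus strand: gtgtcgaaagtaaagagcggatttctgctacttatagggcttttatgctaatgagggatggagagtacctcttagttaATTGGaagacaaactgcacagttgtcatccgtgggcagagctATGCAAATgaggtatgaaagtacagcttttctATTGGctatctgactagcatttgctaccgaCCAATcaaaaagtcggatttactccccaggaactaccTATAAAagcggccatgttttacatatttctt
HIST2H2BE, chr1:149886683-149886932, minus strand: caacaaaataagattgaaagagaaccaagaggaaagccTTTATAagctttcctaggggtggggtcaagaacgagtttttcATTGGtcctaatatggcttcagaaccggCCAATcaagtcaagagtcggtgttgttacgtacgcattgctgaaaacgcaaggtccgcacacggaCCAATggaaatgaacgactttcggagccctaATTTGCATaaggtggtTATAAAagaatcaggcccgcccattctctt

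In HIST1H2BK the octamer began 46 bases and the nearest TATAAA 27 bases before the start, and in HIST2H2BE they began 46 and 30 bases before it. In HIST1H2AC the octamer lay on the opposite strand, 130 bases before the start. The HIST1H1C sequence holds CCAAT but no exact match to the other motifs. HIST1H4H, also called higher, had no exact match to any of the 3 in its whole 300-base promoter. Only exact letters were searched, so variants such as tatata in HIST1H1C and tataag in HIST1H4H were not counted. Neither gene is thereby shown to lack a TATA box. Letters that match are a description of the sequence, and binding was not measured.

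Because of the divergent pairs, 1 stretch of DNA serves as upstream region for 2 members. There were 12 pairs of members that start head to head within 500 bases, and in 3 of them both genes were tested. The 12 are not all separate stretches: HIST1H2BO was paired with HIST1H2AM and again with HIST1H3J, whose annotated span overlaps HIST1H2AM. HIST1H2BC and HIST1H2AC, 218 bases apart, were both called higher, with log2 fold changes of 1.64 and 2.29. HIST2H2BE and HIST2H2AC, 322 bases apart, had log2 fold changes of 2.06 and 0.46, and only HIST2H2BE was called. HIST1H2BJ and HIST1H2AG, 291 bases apart, had 1.58 and 0.21, and only HIST1H2BJ was called. The difference within a pair was not tested. In another pair the counts themselves were lopsided, with 3968 counts for HIST1H2BK over all libraries and 8 for HIST1H2AH, 330 bases away.

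Along chromosome 6 the counted members lay in blocks. Between HIST1H2BE and HIST1H4H, 21 annotated genes in a row, 15 of them members, had no count in any of the 6 libraries, over chr6:26188765-26273356 (84.6 kb). Members of H1, H2A, H2B, H3 and H4 are all among these 15. A second run of 6 genes, 5 of them members, lay between HIST1H2BN and HIST1H3J. On both sides of the first run were genes called higher, HIST1H2BD before it and HIST1H4H after it. HIST1H2BE at its edge was not tested, with raw counts of 1, 1 and 0 in parent and 8, 7 and 6 in ADRr libraries. How reads with several matches were counted is not given in the sources used here. Pairs such as HIST2H4A and HIST2H4B, HIST2H3A and HIST2H3C or HIST2H2AA3 and HIST2H2AA4 share nearly all their sequence, so their low counts are uncertain.

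**Figure D4:**
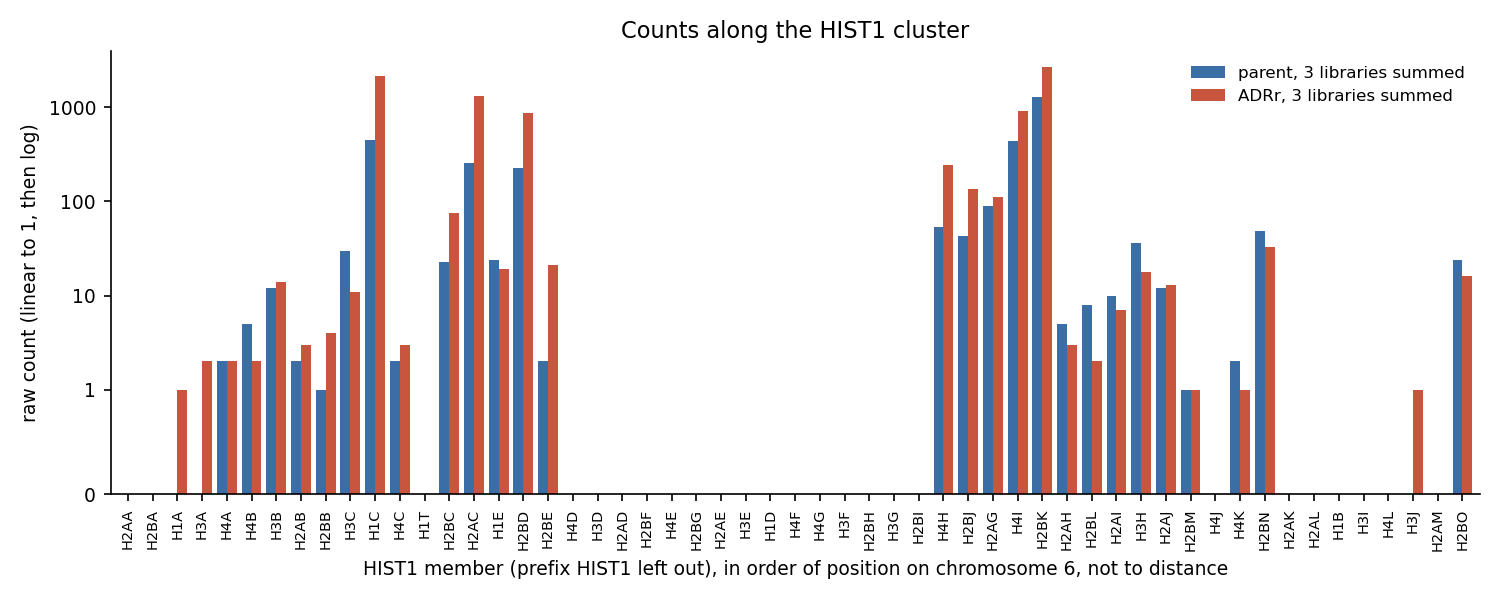
Raw counts summed over the 3 parent (blue) and the 3 ADRr (red) libraries (y axis, linear up to 1 and logarithmic above) for the 55 HIST1 members in their order on chromosome 6 (x axis, not to distance). The counted members form 2 main blocks on either side of 15 members without a count.

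Other genes that start within the span of HIST1 were also read, though few of them start among the tested members. Beside the calls given here, 29.2% of all tested genes were called higher and 29.6% lower. Among 19 tested non-histone genes that start between the first and the last HIST1 member, 2 were called higher and 13 lower, with a median log2 fold change of -0.59, while 8 of the 11 tested HIST1 members were called higher. Of these neighbours, HFE alone starts between HIST1H1C and HIST1H4H (log2 fold change -1.51, called lower). None starts between HIST1H2BJ and HIST1H2BK, so the neighbours mostly describe other stretches of the span. In HIST2, 49 tested non-histone genes start between the first and last member (13 called higher, 7 lower, median 0.07). All of them start between HIST2H3PS2, which had no count, and the block that holds the tested members, so they are no local reference. For one member the neighbourhood bears on the count itself. In RefSeq, the HIST1H2BK gene spans 8566 bases and covers HIST1H4I, which lies on the opposite strand. The strand setting of the counting is not given in the sources used here, so reads of the 2 genes may not have been told apart there, and their log2 fold changes were 0.98 and 0.99.

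The genes that regulate, process and deliver histones were examined beside the members. The counts of calls below stand beside 29.2% of all tested genes called higher and 29.6% called lower, and a median log2 fold change of -0.01. Histone variants encoded outside the gene families above had 10 tested genes of 19 listed, with 3 called higher and 6 lower (median log2 fold change -0.35). The share called higher was thus near that of all genes. The linker variant H1F0 (H1.0), known to accumulate in cells that stop dividing, had 4118 ± 106 normalized counts in parent and 13551 ± 447 in ADRr cells, and its log2 fold change was 1.72 ± 0.05 (adjusted p = 1.90e-18, edgeR). H3F3A and H3F3B encode the same H3.3 protein, yet H3F3A was lower (log2 fold change -0.87 ± 0.06) and H3F3B higher (0.51 ± 0.05). H2AFX, whose phosphorylated form marks DNA breaks, was the variant with the largest decrease (-1.25 ± 0.07). The centromeric H3 variant CENPA (-0.71 ± 0.10) and H2AFZ (-0.29 ± 0.05) were also called lower. The fall of H2AFZ was close to the threshold and lost its call in 1 scaling, library size alone (-0.26), and without ADRr replicate 3 (-0.26).

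Of the 10 tested genes of histone gene transcription, 5 were called lower and none higher by edgeR (median -0.23). The coactivator NPAT went from 1036 ± 127 to 734 ± 47.3 normalized counts (log2 fold change -0.49 ± 0.08), and CASP8AP2 (FLASH), its partner in the histone locus body, from 652 ± 35.3 to 481 ± 24.6 (-0.44 ± 0.08). The largest decrease of that list was CCNE2, a cyclin E, at -1.95 ± 0.11. Histone mRNA processing, translation and decay had 20 tested genes, 3 called higher and 4 lower (median 0.01), both smaller shares than over all genes. SLBP had 2414 ± 172 normalized counts in parent and 882 ± 17.7 in ADRr cells, the largest decrease of the list with a log2 fold change of -1.45 ± 0.06 (adjusted p = 4.88e-15, edgeR). MIF4GD (SLIP1), which joins SLBP to translation, was the largest increase at 0.88 ± 0.12. ERI1 was called higher at 0.30 ± 0.08, a call that was lost without parent replicate 3 (0.23).

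Histone chaperones, which carry histones to and from DNA, had 25 tested genes, with 18 called lower and none higher by edgeR (median -0.57). The largest decrease was CDAN1, a partner of ASF1, at -1.41 ± 0.10. All 23 tested genes of S phase DNA synthesis were called lower (median -1.23), with MCM5, a subunit of the replicative helicase, lowest at -2.21 ± 0.07. The members called higher thus moved against the genes of DNA synthesis and against SLBP in the same libraries, and the part of a change in cell cycle in either direction was not tested.

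**Figure D5:**
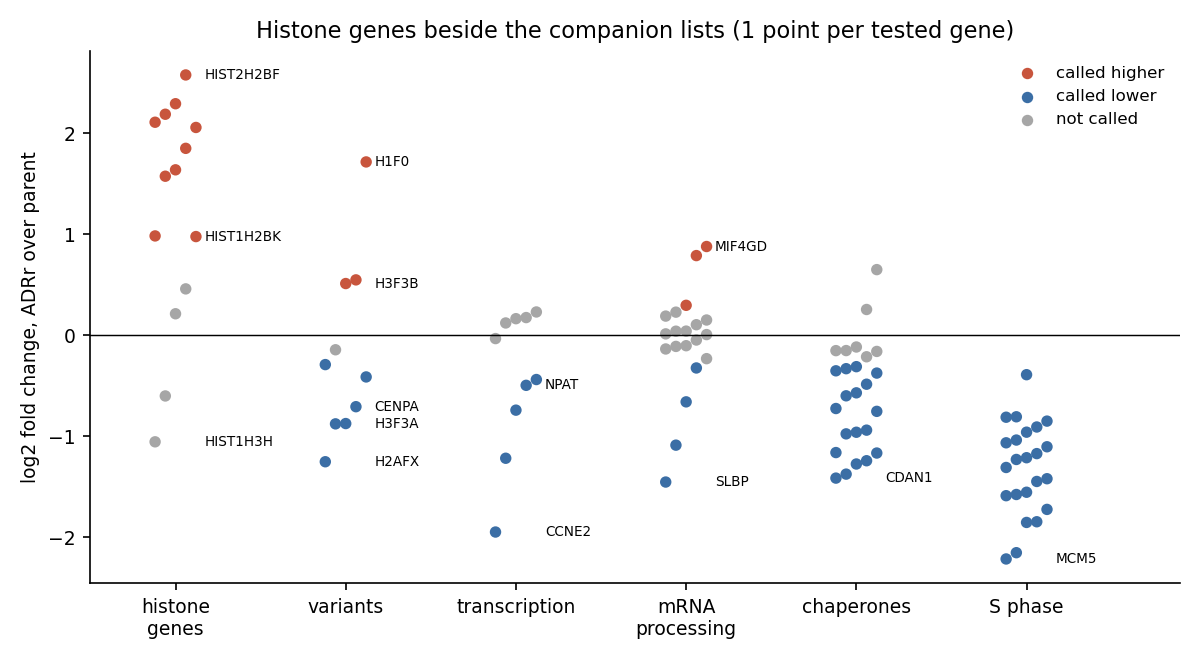
Log2 fold change of ADRr over parent (y axis) for the 14 tested histone genes and for the tested genes of 5 lists (x axis), with genes called higher in red, called lower in blue and not called in grey. The histone genes reach 2.58, the S phase genes all lie below 0, and H1F0 stands apart from the other variants at 1.72.

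As a rough look at RNA without a poly(A) tail in the libraries, 26 such RNAs (small nuclear, small nucleolar, Y and vault RNAs and the like) were listed. Their counts do not measure how much histone RNA without a tail passed the selection. Of these, 12 had no count in any library and 2 were tested. They took 30.8 to 44.7 CPM in parent and 21.9 to 33.9 CPM in ADRr libraries, and the groups overlapped. Nearly all of that was RN7SL2, an RNA of the signal recognition particle, at 609 ± 106 and 429 ± 101 normalized counts (log2 fold change -0.51 ± 0.13, adjusted p = 0.0017, edgeR), a call that DESeq2 did not give (adjusted p = 0.065). SNORA73B went from 28.6 ± 13.6 to 57.8 ± 11.1 (log2 fold change 1.00 ± 0.30, adjusted p = 0.0057, edgeR). The part of RNA without a tail in the histone counts was not tested.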

How the data were processed

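RNA of 3 parent and 3 ADRr samples of MDA-MB-231 had been sequenced by the authors as poly(A)-selected, paired-end libraries. The sample labels and the methods name different library kits and amounts of RNA. Per the labels, the submitters' processing notes name fastp, HISAT2 2.0.5, featureCounts 1.5.0-p3, DESeq2 1.20.0 and the build GRCh38. The authors deposited whole-number counts per gene, not normalized, and FPKM values (FPKM divides the count by gene length and library size). Identifiers and exonic lengths of all 58735 genes equal those of GENCODE 29.

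Counts were tested in R 4.3.3 with edgeR 4.0.16: genes kept by filterByExpr (15242), TMM factors, the quasi-likelihood test and Benjamini-Hochberg adjustment over all of them, with no replicate block. Calls needed an adjusted p up to 0.05 and a change of 1.2-fold or more. Standard errors are the log2 fold change divided by the square root of F. CPM are counts scaled to the library total (15983985 to 18272314 counts). FPKM values were used as deposited, for levels only. The test was also run on simulated data with far fewer changed genes than were called here, which checks its working only.

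The members and lists were chosen with earlier results of these data known. Values in every library are given for the 3 members of each type with the highest mean normalized count and for called members with the largest change. Untested members are given by raw counts. In the companion lists SLBP, NPAT, CASP8AP2, ERI1, H2AFZ, H2AFX, H1F0, H3F3A, H3F3B and CENPA are always named, and in each list the called genes with the largest change in each direction. Stem-loops come from GENCODE 29 transcripts and promoters from RefSeq (GRCh38.p14). No library pair of a group agreed within sampling noise (chi-square per degree of freedom 2.60 to 8.51). Alternatives were other size factors, DESeq2 1.42.0, other filters and thresholds, a replicate block and each library left out.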

Additional observations from a re-analysis of the deposited data

Results flagged for a closer look

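Among the histone pseudogenes, which are not part of the family as defined, 2 of the 4 tested were called higher in ADRr cells, beside 29.2% of all tested genes. HIST2H2BA had raw counts of 20, 18 and 20 in parent and 72, 64 and 64 in ADRr libraries, a log2 fold change of 1.71 ± 0.26 (adjusted p = 3.9e-06, edgeR). HIST2H3DP1 had 9, 12 and 12 in parent and 45, 43 and 43 in ADRr libraries, a log2 fold change of 1.90 ± 0.33 (adjusted p = 2.5e-05, edgeR). Every ADRr library exceeded every parent library in both (34.5% of all tested genes). They are close neighbours on the minus strand, at chr1:121108210-121117257 and chr1:121118195-121118610, and whether their signals are separate was not tested. HIST2H2BA shares windows with HIST2H2BF, which was also called higher, and how reads with several matches were counted is not given in the sources used here. HIST2H2BC and HIST2H2BD, the other two tested pseudogenes, were not called (log2 fold changes 0.12 ± 0.30 and -0.12 ± 0.45).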

How the results depend on the processing

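The 10 members called higher kept their calls with DESeq2's size factors, with library size alone, with DESeq2, without a filter, among protein-coding genes only, by adjusted p alone and without each library in turn. With at least 10 counts in every library, 7 of them were still tested and all 7 were called. With the threshold of 1.2 on the log2 scale 8 were called, without HIST1H2BK (0.98) and HIST1H4I (0.99). Without a filter, HIST4H4 (log2 fold change 2.28, adjusted p = 0.0043, edgeR) and HIST1H2BE (3.10, adjusted p = 0.016, edgeR) were called higher as well, and the count was 12. Leaving out 1 library gave 10 to 11 members called higher, HIST4H4 being the 11th, and 0 called lower each time. The log2 ratio of the summed share was 1.44, and 1.41 to 1.48 with 1 library left out. It was 1.67 without HIST1H2BK, the member with the most counts, whose change was smaller than that of the rest. HIST1H2AG, not called, ranged from 0.46 without parent replicate 2 to -0.028 without ADRr replicate 3, a change of direction (adjusted p = 0.951, edgeR). With the replicate number as a block, 10 members were called higher and 0 lower. Over all genes the block gave 4406 higher and 4464 lower calls, against 4451 and 4507 without it. Deviations of same-numbered libraries from their group means correlated at 0.006, -0.015 and -0.041, and 1 of 6 libraries correlated best with its own number, so that the numbers are names only. The median of all genes was 0.02 with library size alone, against -0.01. The depth limits the 57 untested members, for which a change was not detectable unless it reached the filter. With poly(A) selection the counts are no measure of the amount of histone mRNA without a tail.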
